A study of Mus musculus with 12 samples.

Results

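Krt6a, Krt6b, Krt16 and Krt17, the keratins that keratinocytes switch on at a wound edge, were followed in RNA-seq of mouse scars. The 4 genes were taken by their symbols from the count files, which listed 35976 genes. All 4 members were found in every file and were among the 18853 genes with enough counts to be tested. A 1.5-cm split wound had been made on the back of male mice 8 to 12 weeks old, and a plastic device was set on the wound after 6 days. In the traction groups the device was lengthened by 1 mm each day until it had grown by 8 mm, whereas sham mice wore the same device without elongation. Each treatment was given to Tem1WT/WT mice and to Tem1lacZ/lacZ mice, in which the only exon of Tem1 (listed as Cd248) is replaced by the lacZ reporter in the whole animal. The knock-in line had been backcrossed to C57BL/6J mice for 10 generations. RNA from part of each scar was sequenced for 3 mice in each of the 4 groups, which gave 12 libraries. All 12 scars had thus been wounded and carried the device, and unwounded skin was not part of the comparison. Mice are numbered 1 to 3 in each group as in the labels, which do not say that a shared number links mice of different groups.

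Keratins are the intermediate filament proteins of epithelial cells. A filament is built from pairs of a type I keratin and a type II keratin, such as Krt14 with Krt5 in the basal layer of the epidermis and Krt10 with Krt1 in the layers above it. Krt6a and Krt6b are type II keratins, and Krt16 and Krt17 are type I keratins. In intact skin of the back these keratins are found mainly in hair follicles, including the outer root sheath and the companion layer. After injury, keratinocytes near the wound edge induce Krt6, Krt16 and Krt17 as they enlarge and migrate, and expression persists in hyperproliferative and inflamed epidermis. Krt6 and Krt16 proteins also affect how keratinocytes adhere and signal to immune cells, and Krt17 affects cell growth and hair cycling.

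The members sit in the keratin clusters of the mouse genome, next to the keratins of basal cells. On build GRCm38, Krt6a (Entrez 16687) lies on the minus strand at chr15:101689910-101694307 with 9 exons, and Krt6b (Entrez 16688) lies on the same strand at chr15:101676023-101680287 with 9 exons. The gap between them is 9622 bases, and Krt5 lies 12762 bases beyond Krt6a with no annotated gene in between. Krt16 (Entrez 16666) lies on the minus strand at chr11:100246091-100248902 with 8 exons. Krt17 (Entrez 16667) lies 7314 bases from it on the same strand, at chr11:100256217-100261029, also with 8 exons. Krt14 is on the other side of Krt16, at a distance of 38542 bases with no protein-coding gene in between.

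The pair of Krt6 genes is nearly identical in sequence, which bears on how reads could be assigned to either gene. Their coding sequences were identical at 97.8% of 1662 aligned bases, with 37 differences and a longest identical run of 280 bases. By contrast, Krt16 and Krt17 were identical at 77.7% of 1294 aligned bases, with a longest identical run of 55 bases. The 120-base coding stretch in which Krt6a and Krt6b differ most is shown, with the 8 differing bases in capitals. It was sought without gaps inside single exons, and untranslated parts were not searched. The stretch found lies in exon 1 of both genes. Both stretches are GENCODE coding sequence on build GRCm38, written 5′ to 3′ on the minus strand, from chr15:101693826-101693945 for Krt6a and chr15:101679801-101679920 for Krt6b.
Krt6a: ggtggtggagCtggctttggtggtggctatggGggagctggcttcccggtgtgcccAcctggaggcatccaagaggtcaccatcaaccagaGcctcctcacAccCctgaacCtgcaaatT
Krt6b: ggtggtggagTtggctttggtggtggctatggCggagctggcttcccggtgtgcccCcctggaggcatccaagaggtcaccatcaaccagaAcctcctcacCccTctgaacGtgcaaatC
The same choice for Krt16 and Krt17 fell in exon 5 and held 31 differences, marked in the same way. These stretches come from chr11:100247108-100247227 for Krt16 and chr11:100257749-100257868 for Krt17, on the minus strand.
Krt16: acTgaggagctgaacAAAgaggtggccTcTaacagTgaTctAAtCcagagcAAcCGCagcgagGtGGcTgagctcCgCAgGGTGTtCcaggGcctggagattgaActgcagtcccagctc
Krt17: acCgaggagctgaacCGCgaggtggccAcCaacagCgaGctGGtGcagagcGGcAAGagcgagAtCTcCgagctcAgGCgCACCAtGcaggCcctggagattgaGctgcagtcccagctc
Of all 150-base windows along the transcript, 18.7% for Krt6a and 18.8% for Krt6b occur unchanged in another annotated gene. For Krt6b that gene was Krt6a, and for Krt6a it was Krt6b or Gm5478, a keratin gene of the same cluster. For Krt16 the share was 18.4%, all with Gm11597, and for Krt17 it was 0%. How reads that align to several places were counted is not given in the sources used here, so counts are less certain for Krt6a, Krt6b and Krt16 than for Krt17.

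The libraries held between 41536788 and 64644293 counts, and the 4 members together took 0.337% to 2.53% of them. Counting error was therefore small beside the differences between mice. Cd248, the targeted gene, was at 150 ± 38.3 CPM (CPM, counts scaled to the library size after TMM normalization, SD, n = 3) in Tem1WT/WT sham scars and 209 ± 123 CPM in Tem1WT/WT traction scars. It was at 0.122 ± 0.0592 CPM in Tem1lacZ/lacZ sham scars and 0.120 ± 0.124 CPM in Tem1lacZ/lacZ traction scars, so every library matched its genotype label. Defining markers of epidermis (Krt5, Krt14), fibroblasts (Col1a1), endothelium (Pecam1) and hair follicle (Krt71) were present in all 12 libraries. In such bulk tissue, fewer cells of a type and less RNA per cell cannot be told apart. Several libraries stood apart for the members themselves, namely mouse 3 of the Tem1WT/WT sham group and mouse 1 of both traction groups, and results that rest on them are given with and without them.

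Krt6a, Krt6b and Krt16 varied widely between mice of the same group. Krt6a stood at 519, 564 and 2185 CPM in Tem1WT/WT sham mice 1, 2 and 3 and at 6111, 1607 and 3028 CPM in the traction mice of this genotype. In Tem1lacZ/lacZ mice it stood at 2974, 2798 and 3397 CPM in the sham group and at 6755, 928 and 1075 CPM in the traction group. Mice 1 and 2 of the Tem1WT/WT sham group were thus the lowest of all 12, whereas mouse 1 of each traction group was the highest of its group. Krt6b had a wider range. It stood at 109, 271 and 2806 CPM in Tem1WT/WT sham mice and at 7340, 1820 and 3954 CPM in Tem1WT/WT traction mice. It stood at 1294, 2335 and 4709 CPM in Tem1lacZ/lacZ sham mice and at 10934, 844 and 1394 CPM in Tem1lacZ/lacZ traction mice. The highest library of a group exceeded the lowest by 25.6-fold in the Tem1WT/WT sham group and by 13.0-fold in the Tem1lacZ/lacZ traction group.

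Krt16, the type I partner of Krt6, stood at 165, 336 and 1495 CPM in Tem1WT/WT sham mice and at 3318, 1767 and 2479 CPM in Tem1WT/WT traction mice. In Tem1lacZ/lacZ mice it stood at 1730, 1694 and 2506 CPM in the sham group and at 5663, 1030 and 1182 CPM in the traction group. All 3 Tem1WT/WT traction mice were above all 3 sham mice of their genotype for Krt16, while the Tem1lacZ/lacZ groups overlapped. Krt17 behaved differently from the other members. It stood at 2493, 1986 and 2432 CPM in Tem1WT/WT sham mice and at 3786, 1467 and 956 CPM in Tem1WT/WT traction mice. It stood at 5185, 4577 and 3095 CPM in Tem1lacZ/lacZ sham mice and at 3088, 1380 and 1173 CPM in Tem1lacZ/lacZ traction mice. Every Tem1lacZ/lacZ sham library was above every Tem1WT/WT sham library for Krt17 and above every Tem1lacZ/lacZ traction library, the last by a narrow margin of 3095 against 3088 CPM.

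**Figure D1:**
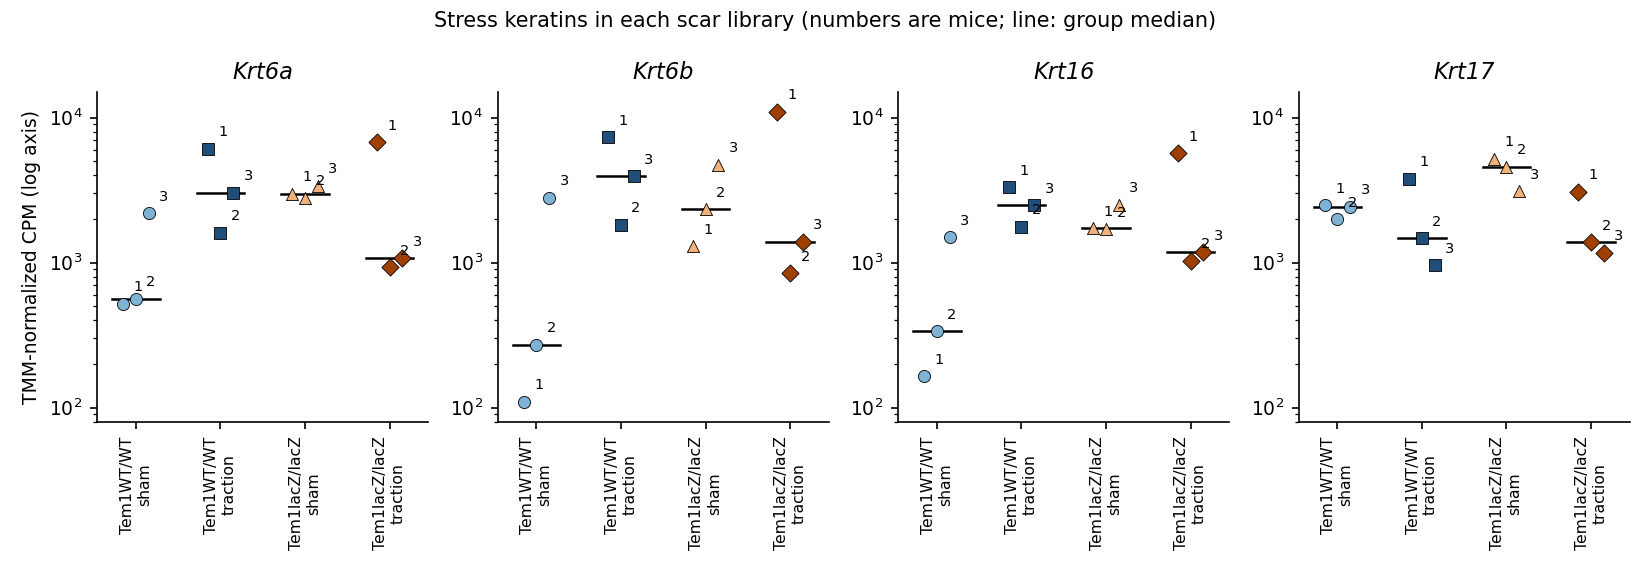
TMM-normalized CPM of Krt6a, Krt6b, Krt16 and Krt17 in each of the 12 scar libraries on a log axis, with mice numbered 1 to 3 within the 4 groups and a line at each group's median. Mice 1 and 2 of the Tem1WT/WT sham group lie lowest for Krt6a, Krt6b and Krt16 (109 and 271 CPM for Krt6b), and mouse 1 of the Tem1lacZ/lacZ traction group lies highest (10934 CPM for Krt6b).

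The order of the group medians was the same for Krt6a, Krt6b and Krt16 and differed for Krt17. For Krt6a the medians fell in the order Tem1WT/WT traction (3028 CPM), Tem1lacZ/lacZ sham (2974 CPM), Tem1lacZ/lacZ traction (1075 CPM) and Tem1WT/WT sham (564 CPM). Krt6b gave 3954, 2335, 1394 and 271 CPM and Krt16 gave 2479, 1730, 1182 and 336 CPM in this order of groups. No neighbours in it were separated beyond their spread, since the libraries of each group overlapped with those of the next for all of Krt6a, Krt6b and Krt16. For Krt17 the order was Tem1lacZ/lacZ sham (4577 CPM), Tem1WT/WT sham (2432 CPM), Tem1WT/WT traction (1467 CPM) and Tem1lacZ/lacZ traction (1380 CPM). Only the first step of that order separated groups without overlap. The spread within groups was large for these genes. The pooled within-group SD of log2 CPM was 1.70 for Krt6b, 1.10 for both Krt6a and Krt16 and 0.67 for Krt17, against a median of 0.27 over 13646 genes whose mean log2 CPM reached 1.

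The first comparison asked how stretching altered the stress keratins of scars in mice with intact Tem1. The fitted log2 fold changes of traction against sham in Tem1WT/WT mice were 1.72 ± 0.83 (SE) for Krt6a, 2.04 ± 1.23 for Krt6b and 1.92 ± 0.82 for Krt16, or 3.29-fold, 4.12-fold and 3.79-fold. For Krt17 it was -0.15 ± 0.49. None of the 4 passed an adjusted p of 0.05 in edgeR (quasi-likelihood test, Benjamini-Hochberg over all genes tested), where 9.15% of all genes did. The adjusted p was 0.181 for Krt6a, 0.279 for Krt6b, 0.138 for Krt16 and 0.860 for Krt17 in edgeR. The 95% interval for Krt16 ran from 0.12 to 3.73, and Krt16 was the 1 member with an unadjusted p under 0.05, as were 31.4% of all genes. It was also the 1 member without overlap between the groups, a separation found upward in 17.7% of all genes. The median log2 fold change of the members was 1.82, beside -0.01 over all genes.

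This comparison depended on the tool and on a single library. With the DESeq2 Wald test, 1 member passed, Krt16 (log2 fold change 1.94, adjusted p = 0.0437), and with limma-voom 0 passed. Without mouse 3 of the Tem1WT/WT sham group, Krt16 passed in edgeR as well (3.33, adjusted p = 0.0467), and the values for Krt6a and Krt6b were 2.73 and 4.52 (edgeR adjusted p = 0.0916 and 0.0660). Without mouse 1 of the Tem1WT/WT traction group they were 1.07 for Krt6a, 1.42 for Krt6b and 1.65 for Krt16. For Krt17, leaving out mouse 2 or mouse 3 of that group turned the sign, to 0.06 and 0.20.

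The same question in mice without Tem1 gave no shared direction for the members. The log2 fold changes of traction against sham in Tem1lacZ/lacZ mice were -0.07 ± 0.80 (SE) for Krt6a, 0.66 ± 1.19 for Krt6b and 0.41 ± 0.79 for Krt16, and -1.19 ± 0.50 for Krt17. No member passed in edgeR, with adjusted p from 0.600 for Krt17 to 0.988 for Krt6a, and 0% of all genes passed there. Krt17 was the 1 member with an unadjusted p under 0.05, where 8.12% of all genes had one. It was also the 1 member without overlap, a separation found downward in 6.16% of all genes. DESeq2 called 0 members and limma-voom with sample weights called 1, Krt17 (-1.45, adjusted p = 0.0473).

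Mouse 1 of the Tem1lacZ/lacZ traction group decided the sign for Krt6b and Krt16. Without it the log2 fold changes in Tem1lacZ/lacZ mice were -1.56 for Krt6a, -1.26 for Krt6b, -0.79 for Krt16 and -1.70 for Krt17, with edgeR adjusted p from 0.128 to 0.622. For Krt6a the sign also turned without mouse 3 of the sham group (0.03) and without mouse 2 (0.36) or mouse 3 (0.33) of the traction group. Leaving out mouse 1 of both traction groups together, an alternative chosen after seeing the data, brought Krt17 past the threshold (-1.70, edgeR adjusted p = 0.0333).

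Between the genotypes, the fitted differences were positive for every member without traction and near 0 under it, and none passed. In the sham groups, the log2 fold changes of Tem1lacZ/lacZ against Tem1WT/WT were 1.49 ± 0.82 (SE) for Krt6a, 1.39 ± 1.21 for Krt6b, 1.57 ± 0.81 for Krt16 and 0.90 ± 0.50 for Krt17. No member passed in edgeR (adjusted p from 0.460 to 0.650), where 0.0106% of all genes did, and none had an unadjusted p under 0.05, against 11.7% of all genes. DESeq2 and limma-voom also called 0 members. For 3 of the 4, Krt6a, Krt16 and Krt17, all Tem1lacZ/lacZ sham libraries were above all Tem1WT/WT sham libraries, a separation found upward in 13.0% of all genes. Krt14, the basal type I keratin, was separated in the same way (1.14 ± 0.68, edgeR adjusted p = 0.513), whereas Krt5 overlapped (0.29 ± 0.29). The direction held for all 4 members when each library was left out in turn. Without mouse 3 of the Tem1WT/WT sham group the values were 2.51 for Krt6a, 3.87 for Krt6b and 2.98 for Krt16. These were the highest with 1 library left out, and the lowest were 1.16, 0.76 and 1.12 in the same order.

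In the traction groups, the same contrast of genotypes gave -0.30 ± 0.81 (SE) for Krt6a, 0.01 ± 1.18 for Krt6b, 0.06 ± 0.79 for Krt16 and -0.14 ± 0.49 for Krt17. No member passed in edgeR (adjusted p from 0.841 to 0.998), where 0.106% of all genes did. None had an unadjusted p under 0.05, against 26.1% of all genes, and DESeq2 and limma-voom called 0. The libraries overlapped for all 4, while 26.6% of all genes were separated in either direction. The intervals were wide, from -2.07 to 1.48 for Krt6a and from -2.60 to 2.62 for Krt6b, so differences of several fold either way were not detectable with 3 mice a group. Leaving out any of the 6 traction libraries turned the sign of at least 1 member, and the values then ran from -1.93 to 0.65.

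Whether traction acted differently by genotype was tested as an interaction. This term was negative for all 4 members, at -1.78 ± 1.15 (SE) for Krt6a, -1.38 ± 1.68 for Krt6b, -1.51 ± 1.13 for Krt16 and -1.03 ± 0.70 for Krt17 on the log2 scale. None of the 4 passed in edgeR (adjusted p from 0.628 to 0.819) or had an unadjusted p under 0.05, and 0% of all genes passed, while 8.91% had an unadjusted p under 0.05. DESeq2 and limma-voom called 0 members too. In limma-voom, Krt6a (-2.72) and Krt16 (-2.78) had an unadjusted p under 0.05, as had 1925 of 18853 genes. Without mouse 1 of both traction groups, chosen after seeing the data, edgeR gave -2.63 for Krt6a, -2.68 for Krt6b, -2.44 for Krt16 and -0.76 for Krt17. None passed there (edgeR adjusted p from 0.515 to 0.612). Krt6a and Krt16 had an unadjusted p under 0.05, as had 1829 of 19282 genes. The traction effects in the genotypes were thus not shown to differ for any of these keratins. Averaged over the genotypes, the traction effect was 0.83 ± 0.57 for Krt6a, 1.35 ± 0.85 for Krt6b, 1.17 ± 0.57 for Krt16 and -0.67 ± 0.35 for Krt17. No member passed in edgeR (adjusted p from 0.189 to 0.347), and 9.73% of all genes passed. None had an unadjusted p under 0.05, against 30.7% of all genes. DESeq2 called 0 members. For Krt17 the average passed in limma-voom (-0.999, adjusted p = 0.0216) and, in edgeR, without mouse 1 of the Tem1WT/WT traction group (-1.05, adjusted p = 0.0438). With the mouse number as a block in the edgeR model, the Krt17 average was -0.85 ± 0.25 (SE) and did not pass (adjusted p = 0.0642).

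**Figure D2:**
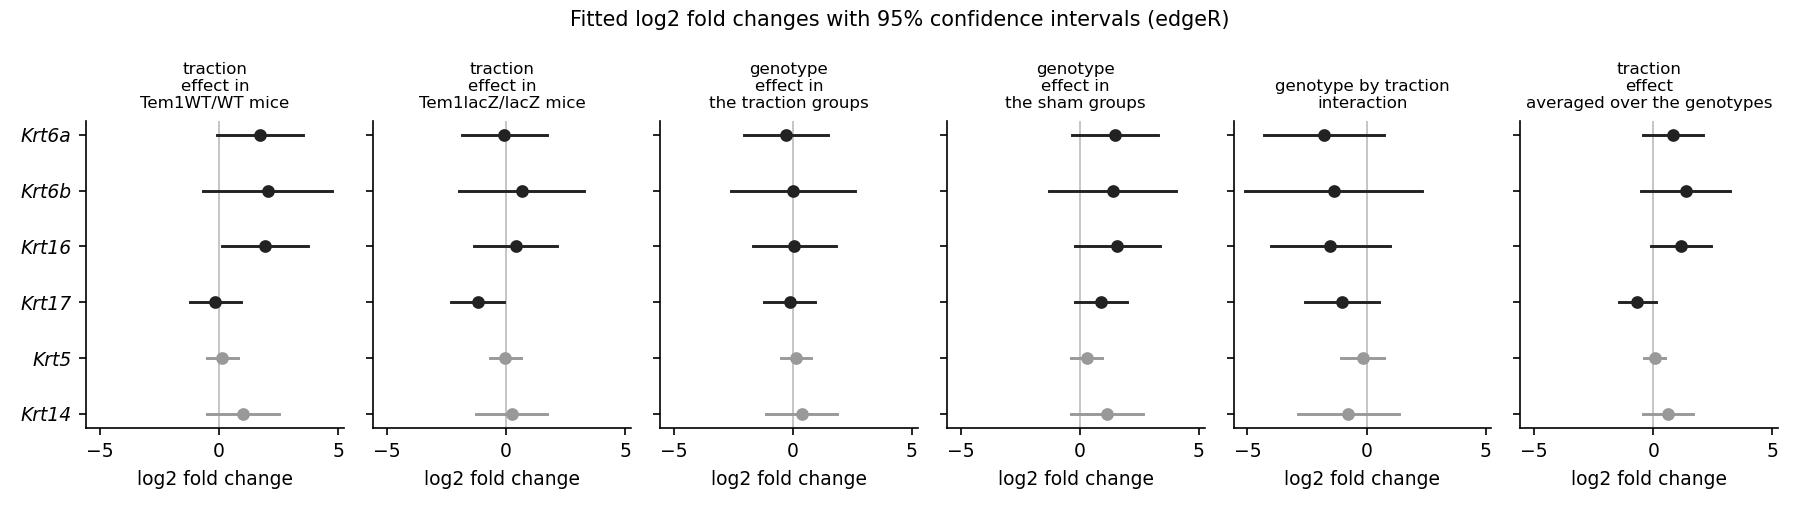
Fitted log2 fold changes (points) with 95% confidence intervals (lines) from edgeR for the 4 stress keratins in black and for Krt5 and Krt14 in grey, with 1 panel for each of the 6 comparisons. Only Krt16 under traction in Tem1WT/WT mice (0.12 to 3.73) and Krt17 under traction in Tem1lacZ/lacZ mice (-2.29 to -0.09) have intervals that leave out 0, and neither passed after adjustment.

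Each member was next set against the basal keratins of the same library. This compares keratins within 1 library, which holds both epidermis and hair follicles, and the parts of these in the ratio were not separated. As a percentage of the summed counts of Krt5 and Krt14, Krt16 was at 2.74%, 5.58% and 16.0% in the 3 Tem1WT/WT sham libraries and between 20.4% and 24.1% in the Tem1WT/WT traction libraries, without overlap. It was between 12.4% and 17.2% in Tem1lacZ/lacZ sham libraries and between 16.4% and 18.8% in Tem1lacZ/lacZ traction libraries. Relative to the basal keratins, Krt16 was lower in every Tem1lacZ/lacZ traction library than in every Tem1WT/WT traction library. Krt6a was at 8.63% to 23.4% in Tem1WT/WT sham and 21.9% to 37.6% in Tem1WT/WT traction libraries, and at 20.4% to 29.1% and 14.9% to 22.4% in the Tem1lacZ/lacZ groups. Krt6b was at 1.82% to 30.1% and 24.8% to 45.1% in the Tem1WT/WT groups and at 12.7% to 32.2% and 13.6% to 36.3% in the Tem1lacZ/lacZ groups, so that sham and traction libraries overlapped in both genotypes.

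Krt17 went the other way against the summed basal keratins. It was at 26.1% to 41.5% in Tem1WT/WT sham libraries and at 8.44% to 23.3% in Tem1WT/WT traction libraries, without overlap. It was at 21.2% to 50.8% in Tem1lacZ/lacZ sham libraries and at 10.3% to 22.2% in Tem1lacZ/lacZ traction libraries, which overlapped. With traction compared with sham over both genotypes, the mean log2 ratio differed by -1.08 for Krt17, a ratio of 0.474 (p = 0.01, two-sided exact permutation test within genotypes, for which the smallest p is 0.005). For Krt16 it differed by 1.00 (exact permutation p = 0.03), for Krt6b by 1.30 (exact permutation p = 0.135) and for Krt6a by 0.35 (exact permutation p = 0.375). After Benjamini-Hochberg adjustment over the 20 ratios compared none passed, with 0.2 for Krt17 and 0.3 for Krt16. Within a single genotype or treatment, 3 libraries against 3 cannot give an exact permutation p below 0.1. That value was reached by Krt16 and Krt17 for traction in Tem1WT/WT mice (1.82 and -1.06) and by Krt16 for genotype under traction (-0.36). Among these, only Krt16 for traction in Tem1WT/WT mice kept it with other denominators, at 2.37 against Krt5 alone and 2.84 against the desmosomal gene Dsp (exact permutation p = 0.1 for both). Krt17 for traction in Tem1WT/WT mice was at -0.51 against Krt5 alone (exact permutation p = 0.4) and at -0.04 against Dsp (exact permutation p = 0.9), so its separation was seen only with Krt14, itself at 1.00 in that contrast, in the denominator. The same held for Krt16 for genotype under traction, with exact permutation p = 0.4 against Krt5 alone and 0.5 against Dsp. In Tem1lacZ/lacZ mice, Krt17 with traction was at -1.09 against the summed basal keratins (exact permutation p = 0.2). There it was at -1.21 against Krt5 alone and -1.55 against Dsp (exact permutation p = 0.1 for both). Over both genotypes the exact permutation p was 0.02 and 0.1 for Krt17 and 0.105 and 0.18 for Krt16 against Krt5 alone and Dsp.

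**Figure D3:**
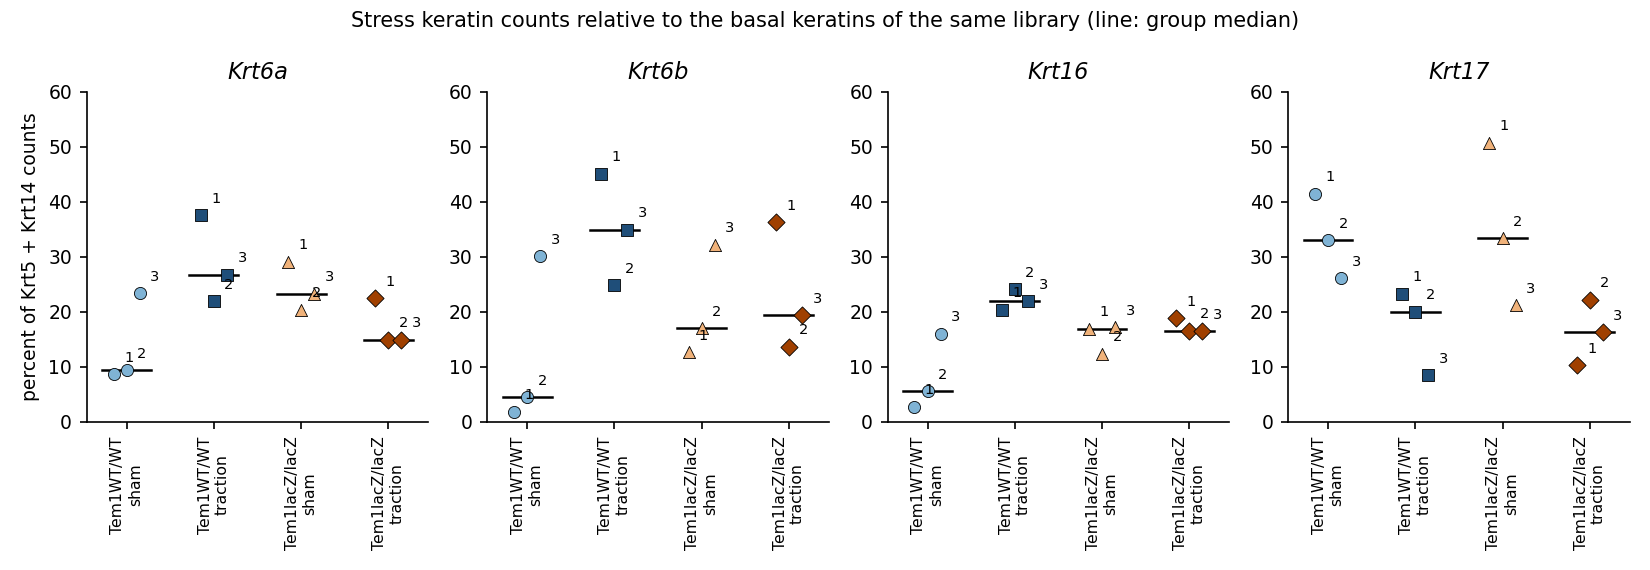
Counts of each stress keratin as a percentage of the summed Krt5 and Krt14 counts of the same library, in the 12 libraries, with mice numbered within groups and a line at each group's median. For Krt16 the Tem1WT/WT traction libraries (20.4% to 24.1%) lie above all other groups, and for Krt17 the Tem1WT/WT traction libraries (8.44% to 23.3%) lie below the sham libraries of the same genotype (26.1% to 41.5%).

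Levels were compared between the members only after division by transcript length, as CPM per kilobase. On this scale Krt17 was the highest of the 4 in 7 of the 12 libraries, Krt6b in 4 and Krt16 in 1. In all 3 Tem1WT/WT sham libraries Krt17 led, at 1607, 1281 and 1568 CPM per kilobase, with Krt16 at 105, 215 and 955. In Tem1WT/WT traction libraries Krt16 reached 2120, 1129 and 1584 CPM per kilobase and Krt17 2441, 946 and 616. The level of Krt17 divided by that of Krt16, per kilobase, was accordingly 15.3, 5.97 and 1.64 in Tem1WT/WT sham mice 1, 2 and 3 and 1.15, 0.838 and 0.389 in Tem1WT/WT traction mice. It ran from 1.25 to 3.02 in the Tem1lacZ/lacZ sham group and from 0.550 to 1.35 in the Tem1lacZ/lacZ traction group. The groups were separated in Tem1WT/WT mice and overlapped in Tem1lacZ/lacZ mice, and this quotient was not tested.

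The split of counts between the near-identical Krt6 genes also varied. Per kilobase, Krt6b made up 17.7%, 32.8% and 56.7% of the Krt6a and Krt6b total in Tem1WT/WT sham mice and between 53.6% and 57.1% in Tem1WT/WT traction mice. It made up 30.7% to 58.6% in Tem1lacZ/lacZ sham mice and 48.1% to 62.3% in Tem1lacZ/lacZ traction mice. The part of shared reads in these percentages was not tested.

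Over the 12 libraries, Krt6a, Krt6b and Krt16 moved together, and Krt17 followed them less. As a description across libraries that share groups and scaling, Pearson's r of log2 CPM was 0.98 between Krt6b and Krt16 (Spearman's rho 0.92). It was 0.93 between Krt6a and Krt16 (rho 0.96) and 0.93 between Krt6a and Krt6b (rho 0.92). Krt6a and Krt6b share sequence, and the part of shared reads in their r was not tested. With each group's mean removed, the values of r in the same order were 0.98, 0.93 and 0.92, so they did not rest on differences between groups. Without the 2 libraries farthest from the median, mice 1 and 2 of the Tem1WT/WT sham group, r was 0.94, 0.92 and 0.89. With Krt17, r was 0.44 for Krt6a, 0.17 for Krt6b and 0.18 for Krt16 (rho 0.43, 0.22 and 0.31). With each group's mean removed these were 0.64, 0.38 and 0.41, and without the 2 libraries farthest from the median of Krt17 they were 0.62, 0.40 and 0.32. Krt14 followed the first 3 members, with r of 0.95 for Krt6a, 0.89 for Krt6b and 0.86 for Krt16, whereas Krt5 did so less (0.71, 0.52 and 0.52).

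**Figure D4:**
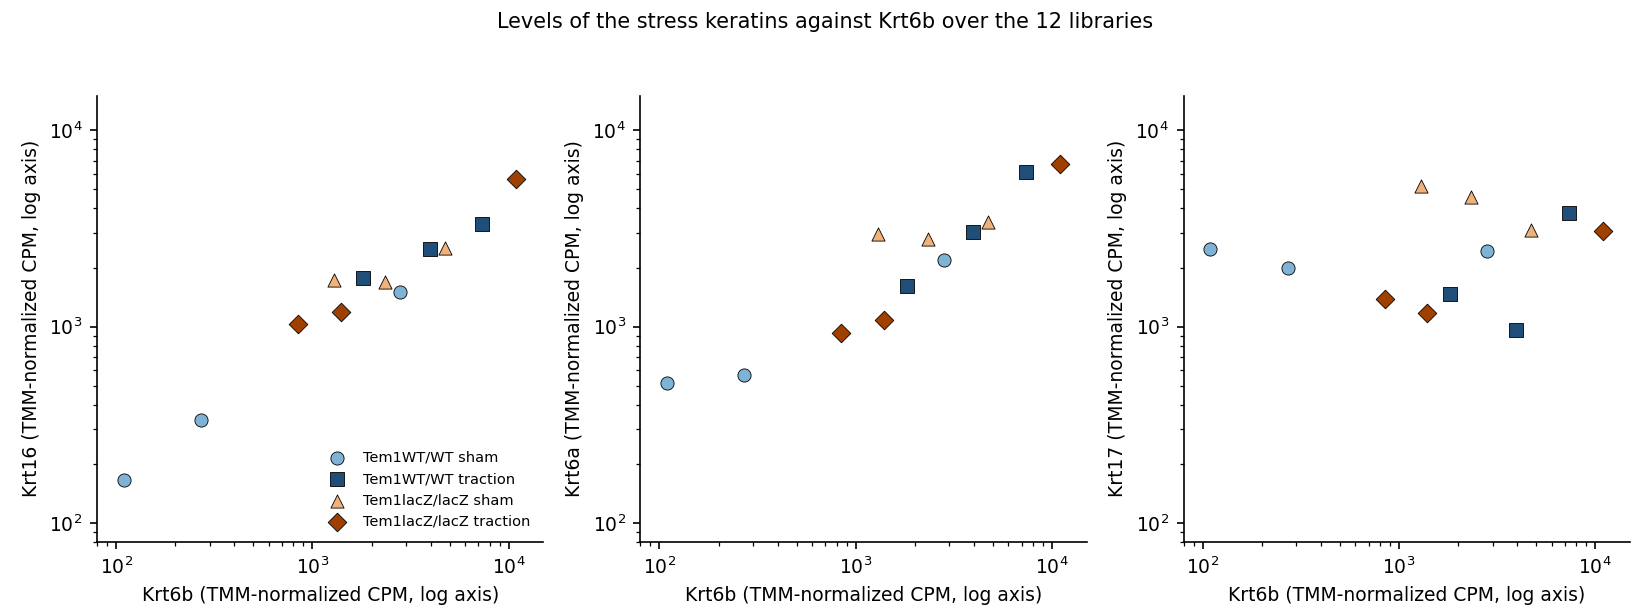
TMM-normalized CPM of Krt16, Krt6a and Krt17 against Krt6b on log axes, with 1 point for each of the 12 libraries and groups marked by shape and colour. The points rise along a line for Krt16 (r = 0.98) and Krt6a (r = 0.93), while those for Krt17 (r = 0.17) are scattered.

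The genes most like each member were sought among 13646 genes by Pearson's r of log2 CPM over the 12 libraries, as a description. For Krt6b and Krt16 the same genes led, with Sprr1b, a precursor of the cornified envelope, at 0.99 and 0.96, and Tpm4, an actin-binding tropomyosin, at 0.97 with both. Stfa1, a cysteine protease inhibitor of the stefin family, was at 0.94 with Krt6b and 0.95 with Krt16, and BC117090 at 0.94 and 0.95. Spearman's rho with Krt6b and Krt16 was 0.84 and 0.80 for Stfa1 and 0.93 and 0.83 for BC117090, against 0.98 and 0.94 for Sprr1b. Lce3d, a late cornified envelope gene, completed the list for Krt6b (0.95), and Tgds did so for Krt16 (0.94). Sprr1b stood at 12.1 to 75.5 CPM in Tem1WT/WT sham libraries and at 70.5 to 168 CPM in Tem1WT/WT traction libraries. For Krt6a the genes included Gm5478 (0.98), S100a11, a calcium-binding protein (0.96), Fam162a (0.96) and Krt14 (0.95). Gm5478 reached only 1.41 to 32.0 CPM and shares sequence with Krt6a. For Krt17 another set was found, with Ehf, an epithelial transcription factor of the ETS family (0.96), Plet1, a surface protein of the upper hair follicle (0.94), Tnfrsf4 (0.94), Zfp869 (0.93) and Tuba8 (0.93).

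Other keratins were set beside the members by layer. Among the 3 basal keratins, Krt15, which marks resting basal and bulge cells, fell under traction in Tem1WT/WT mice (log2 fold change -2.64 ± 0.59 SE, edgeR adjusted p = 0.0329), from 387 to 1471 CPM in sham libraries to 44.1 to 203 CPM. Krt5 and Krt14 did not pass, at 0.14 ± 0.29 and 1.00 ± 0.68. None of the 4 suprabasal keratins passed in edgeR, with Krt77 at -2.82, Krt2 at -2.24, Krt1 at 0.48 and Krt10 at -0.02. DESeq2 called 2 of them lower, where it called 4047 of 18728 genes in this contrast in either direction. Of the 8 keratins of the companion layer and inner root sheath 2 fell, Krt26 and Krt72 (-2.67 and -2.61), and of the 11 hair shaft keratins tested 5 fell, Krt34, Krt36, Krt81, Krt84 and Krt86 (from -2.67 to -1.92). Of the 10 keratins of other epithelia tested 3 fell, Krt8, Krt23 and Krt79 (from -2.14 to -1.39). In edgeR, 3.54% of all genes fell in this contrast. In Tem1lacZ/lacZ mice, where no gene at all passed in edgeR, none of these keratins was called. The median log2 fold change in Tem1WT/WT mice was -1.90 for the sheath keratins and -2.36 for the hair shaft keratins, beside 1.82 for the members and -0.01 for all genes.

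**Figure D5:**
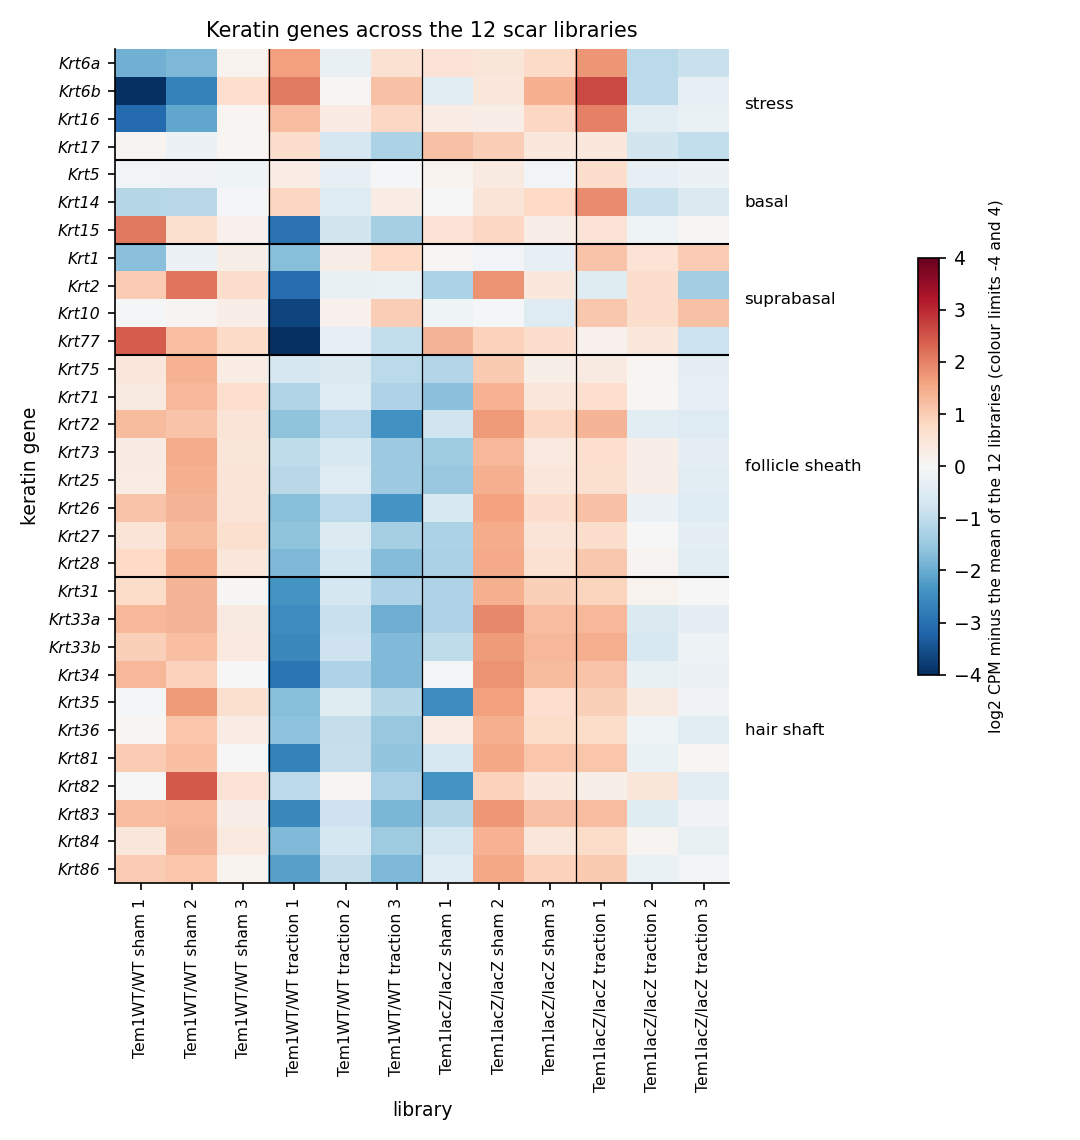
Log2 CPM of 30 keratin genes minus each gene's mean over the 12 libraries, with libraries in columns by group and genes in rows from stress keratins to hair shaft keratins, coloured from -4 (blue) to 4 (red) with values beyond these limits drawn at the limit. Krt6a, Krt6b and Krt16 are lowest in mice 1 and 2 of the Tem1WT/WT sham group, whereas the keratins of the follicle sheath and hair shaft are mostly below their mean in the Tem1WT/WT traction libraries.

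Genes known to be induced with the stress keratins in wound-edge keratinocytes were examined next in Tem1WT/WT mice. This list, and that of the regulators below, was chosen with earlier results of these data known, so the counts are a description only. Of the 25 wound-edge genes tested, 11 rose with traction and 0 fell, where 5.61% of all genes rose. The 4 with the smallest adjusted p were Itga5, a fibronectin receptor subunit (2.05 ± 0.39 SE), Mmp13, a collagenase (5.19 ± 1.06), Tnc, a matrix glycoprotein (3.75 ± 0.78), and Slpi, an antiprotease (4.30 ± 0.95). Their adjusted p ran from 0.0278 to 0.0329 in edgeR. Mouse 1 of the Tem1WT/WT traction group carried much of the change in Mmp13, at 1929 CPM against 154 and 138 CPM in mice 2 and 3, in Slpi, at 147 against 13.1 and 21.8 CPM, and in Tnc, at 7503 against 1049 and 2411 CPM. Without that mouse the log2 fold changes were 2.83 for Mmp13, 2.64 for Tnc, 2.48 for Slpi and 2.09 for Itga5, of which Mmp13 and Itga5 passed in edgeR (adjusted p = 0.0433 and 0.0446) and Tnc and Slpi did not (0.0519 and 0.0542). Itga5 and Tnc are also expressed by fibroblasts, and S100a8 and S100a9 of this list by neutrophils. Averaged over the genotypes 6 of the 25 rose, where 6.50% of all genes did, and 1 fell, where 3.23% did. The latter was Sprr1a, a cornified envelope precursor (-1.13 ± 0.23, edgeR adjusted p = 0.0254). Among 24 tested factors and signals that act on stress keratin genes, 4 rose in Tem1WT/WT mice, namely Fosl1, an AP-1 subunit (2.94 ± 0.53), Stat3 (1.21 ± 0.33), Cebpb (2.09 ± 0.52) and the cytokine gene Il1b (6.42 ± 1.70). Their adjusted p ran from 0.0252 to 0.0467 in edgeR. Il1b stood at 3698 CPM in mouse 1 of the Tem1WT/WT traction group and at 86.0 and 84.9 CPM in mice 2 and 3. Without mouse 1, Fosl1 (2.30) and Cebpb (0.90) passed in edgeR (adjusted p = 0.0441 for both), and Il1b (2.49) and Stat3 (0.68) did not (0.134 and 0.122). Fosl1 was also lower in Tem1lacZ/lacZ than in Tem1WT/WT traction scars (-3.87 ± 0.56, edgeR adjusted p = 0.0335), where 0.0955% of all genes were lower.

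Desmosomal and cytolinker genes anchor keratin filaments at the cell surface. Of 21 tested, 3 fell in Tem1WT/WT mice with traction, Dsg2 (-1.27 ± 0.21 SE), Pkp2 (-1.02 ± 0.26) and Ppl (-0.76 ± 0.20), and 0 rose. Of 10 keratinocyte identity genes 3 fell, the transmembrane proteins Cldn1 (-1.28 ± 0.27) and Epcam (-1.38 ± 0.29) and the splicing factor Esrp1 (-0.84 ± 0.18), where 3.54% of all genes fell. The summed level of these 10 was 1296 to 1710 CPM in Tem1WT/WT sham, 685 to 1082 CPM in Tem1WT/WT traction, 1300 to 1920 CPM in Tem1lacZ/lacZ sham and 1039 to 1549 CPM in Tem1lacZ/lacZ traction libraries.

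Markers of other cells moved with the same contrast, and their part in the members' values was not tested. Of 9 neutrophil markers tested 6 rose with traction in Tem1WT/WT mice, and their summed level was 119 to 137 CPM in Tem1WT/WT sham, 369 to 7585 CPM in Tem1WT/WT traction, 222 to 232 CPM in Tem1lacZ/lacZ sham and 315 to 585 CPM in Tem1lacZ/lacZ traction libraries. In sham libraries up to 2 of the neutrophil markers had 0 counts. The highest sum was that of mouse 1 of the Tem1WT/WT traction group, which was also the highest of its group for all 4 members. Of 8 endothelial markers 5 rose, of 10 fibroblast markers 3 rose and of 9 macrophage markers 1 rose, whereas 1 of 5 melanocyte and 1 of 6 sebaceous markers fell. Over all genes, 5.61% rose and 3.54% fell in this contrast in edgeR. None of 6 adipocyte or 8 skeletal muscle markers passed in edgeR, while DESeq2 called 0 and 5 of them. DESeq2 called 4047 of 18728 genes in this contrast, in either direction. Of all 1725 genes called by edgeR in this contrast 61.3% rose, against 43.9% with upper quartile scaling. All these calls rested on 12 libraries fitted together. With mouse 1 or mouse 2 of the Tem1WT/WT sham group left out, 0 of all genes passed for traction in Tem1WT/WT mice, and with mouse 1 of both traction groups left out the 25 wound-edge genes gave 7 that rose and 2 that fell. In that fit 2 of the 24 regulators rose and 1 fell, 6 of the 10 keratinocyte identity genes fell and 6 of the 9 neutrophil markers rose. Over all genes, 1563 of 19282 passed in that fit for traction in Tem1WT/WT mice, and 1112 of these rose.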

How the data were processed

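Scar RNA was made into stranded poly(A) libraries and sequenced as paired-end reads. Per the labels and the study's methods, the authors trimmed reads with fastp 0.20.0, aligned them to GRCm38 with HISAT2 2.1.0 and counted them per gene with featureCounts 2.0.0. The deposited values are whole-number counts per gene symbol, without normalization. Which annotation was used, whether strand was counted and how multiply aligned reads were treated are not given in the sources used here. Groups were taken from the sample labels, with 3 mice a group. Totals of 41536788 to 64644293 counts make counting error small for the members. No libraries of a group were copies of each other.

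Genes were filtered with edgeR's filterByExpr, scaled by TMM and fitted by robust quasi-likelihood in 1 model of the 4 groups with 8 residual degrees of freedom (edgeR 4.0.16, R 4.3.3). Tests were two-sided, and the threshold was a Benjamini-Hochberg adjusted p of 0.05 over 18853 genes. DESeq2 1.42.0, limma-voom (limma 3.58.1), other filters and scalings, and leaving out libraries were alternatives. Levels are CPM after TMM, and log2 CPM used a prior count of 2. Ratios to Krt5 and Krt14 used counts with 0.5 added and exact permutation tests. Transcript lengths and sequences came from GENCODE mouse release 21 and alignments from Biopython 1.88. Entrez identifiers came from RefSeq for GRCm38. Statistical code was tested on simulated data. Figures were drawn with Python 3.11.15 and matplotlib 3.10.9.

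The members and gene lists were chosen with earlier results of these data known. Named genes were the 4 members, Krt5, Krt14, Cd248, in each list up to 4 genes with the smallest adjusted p for traction in Tem1WT/WT mice and any gene past the threshold in another comparison, and the 5 genes most correlated with each member, of which 1 is not reported here. Further list members that passed are named to complete a count, and Krt1, Krt2, Krt10 and Krt77 as the whole suprabasal list.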

Additional observations from a re-analysis of the deposited data

How the results depend on the processing

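Values are log2 fold changes with edgeR unless another tool is named, and the cause of each difference was not tested. No member was called in the fit reported, and 3 results for members passed the threshold under at least 1 alternative. The DESeq2 Wald test called Krt16 for traction in Tem1WT/WT mice (1.94). Limma-voom with sample weights called Krt17 for traction in Tem1lacZ/lacZ mice (-1.45) and averaged over the genotypes (-0.999). Leaving out replicate 1 of both traction groups, chosen after seeing the data, called Krt17 in both of these comparisons (-1.70 and -1.32).

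Signs turned mainly for genotype in the traction groups. Krt6b, reported as 0.01, fell just under 0 with all genes of at least 1 count (-0.0025), DESeq2 size factors (-0.0065), the DESeq2 Wald test (-0.0065) and only the 6 libraries compared (-0.0069), and lay at -0.96 with limma-voom, where Krt16 was at -0.70. Krt17 was at 0.022 with upper quartile scaling. Limma-voom also turned Krt6b (-1.09) and Krt16 (-0.69) for traction in Tem1lacZ/lacZ mice. Without replicate 1 of both traction groups, Krt6b was at -1.26 and Krt16 at -0.79 for traction in Tem1lacZ/lacZ mice. Krt6b was then at -1.31, Krt16 at -0.89 and Krt17 at 0.12 for genotype under traction, and the averaged value for Krt6a was -0.25.

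With each library left out in turn, traction in Tem1WT/WT mice ran from 1.47 to 3.33 for Krt16 and from -0.94 to 0.20 for Krt17. Traction in Tem1lacZ/lacZ mice ran from -1.56 to 0.36 for Krt6a, from -1.26 to 1.29 for Krt6b and from -0.79 to 0.79 for Krt16. Genotype under traction ran from -1.81 to 0.35 for Krt6a, -1.93 to 0.62 for Krt6b, -1.15 to 0.44 for Krt16 and -0.67 to 0.65 for Krt17. The averaged value for Krt17 ran from -1.05 to -0.49.

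Among ratios to the basal keratins, Dsp as the denominator turned Krt6b (-0.30) and Krt16 (-0.28) for traction in Tem1lacZ/lacZ mice, and moved Krt17 from -1.06 to -0.04 for traction in Tem1WT/WT mice and from 0.0029 to 1.204 for genotype in the sham groups. Without replicate 1 of both traction groups, Krt6b was at -0.23 there and Krt17 at 0.55 for genotype under traction. With each library left out, the ratio ran from -0.23 to 0.53 for Krt6b with traction in Tem1lacZ/lacZ mice, from -0.31 to 0.32 for Krt17 with genotype in the sham groups and from -0.48 to 0.27 for Krt17 with genotype under traction.

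Pairing by number was undecided. Same-numbered libraries had r from -0.47 to 0.37. Of 6 libraries each, 6 (sham), 5 (Tem1WT/WT), 3 (traction) and 1 (Tem1lacZ/lacZ) were closest to their own number. With the number as replicate block, Krt6b (-0.15) and Krt16 (-0.041) turned for genotype under traction, and no member's call changed. For traction in Tem1WT/WT mice, 1725 genes passed, against 1467 with the block, 4047 with DESeq2, 748 with limma-voom, 1011 with all genes of at least 1 count, 0 with only 6 libraries and 0 to 2861 with 1 library left out. Each library left out, except mouse 1 of the Tem1lacZ/lacZ traction group, moved this count by over 1.5 times. For genotype under traction these were 20 against 2334 with DESeq2, 0 with only 6 libraries and 3 to 1421 with 1 library left out. DESeq2 called 28 genes for traction in Tem1lacZ/lacZ mice, 43 for genotype in the sham groups and 69 for the interaction, against 0, 2 and 0, and limma-voom called 435 in the first of these. Without replicate 1 of both traction groups 660 genes passed in the first, 5 for genotype under traction and 4064 averaged. The averaged contrast called 1835, against 3850 with DESeq2, 3881 with limma-voom, 1198 with all genes of at least 1 count and 0 to 3422 with 1 library left out. With upper quartile scaling the share of calls that were higher went from 61.3% to 43.9% for traction in Tem1WT/WT mice and from 66.8% to 51.2% for the average, and the median of all genes was at -0.12 for the former and at 0.14 for genotype under traction. Of the counts of listed genes, 36 of the DESeq2 values, 3 of the upper quartile values and 30 of those without replicate 1 of both traction groups moved by over 1.5 times. With within-group SDs of 1.10 to 1.70 for Krt6a, Krt6b and Krt16, differences of several fold are not resolved.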
